A study of Rattus norvegicus with 40 samples.

Results

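The contralateral L5 dorsal root ganglia (DRGs) of sham-operated rats were set against the contralateral L4 DRGs of the same rats, to describe which genes differed between the 2 neighbouring lumbar segments on a side without an operation. The members were the arrays labelled sham, contralateral and L5 (5 arrays) or sham, contralateral and L4 (5 arrays), 10 of the 40 arrays of the study. The rats were male Sprague-Dawley rats, and DRGs were taken 4 weeks after surgery. The sham cohort (5 rats) underwent the left-sided operation without ligation of the L5 spinal nerve, and the SNL cohort (5 other rats) had that nerve tightly ligated (spinal nerve ligation, a model of neuropathic pain). The operated side is called ipsilateral. Each array held RNA of 1 DRG. The contralateral DRG of a sham rat was not operated on, but it came from an animal that was anaesthetized and operated on the other side, so it is not tissue of a naive rat. A DRG holds neurons, satellite glia, Schwann cells, vessels, macrophages and connective tissue, and in such bulk RNA fewer cells of a type and less RNA per cell cannot be told apart.

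A DRG is the cluster of sensory neurons whose axons enter the spinal cord at one segment. In rats the L4 and L5 ganglia send most sensory fibres of the sciatic nerve. They serve neighbouring and overlapping fields of the hind limb. Position along the body axis is marked during development by Hox genes, transcription factors that lie in 4 clusters, and genes nearer the 5′ end of a cluster are used further towards the tail. Some of these domains persist in adult tissue. The neurons themselves fall into classes, among them proprioceptors (muscle sense), low-threshold mechanoreceptors (touch) and peptidergic and nonpeptidergic nociceptors (pain).

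Signals were the linear MAS 5 intensities of the deposited table, analysed as log2(signal + 16). A difference on this scale is L5 minus L4, and it understates the change of a dim gene. The limma fit over 31042 probesets called a probeset at a Benjamini-Hochberg adjusted p under 0.05. It called 3029 probesets higher and 4749 lower in L5, which is 25.1% of those tested. Of the called probesets 38.9% were higher as deposited, 49.5% after quantile normalization (2544 higher, 2591 lower) and 67.0% after scaling to equal medians, so the balance of the directions was not stable to the scaling. Most differences were small, and 57 called probesets were at least 1.5-fold higher and 581 at least 1.5-fold lower. Genes are therefore described here as higher or lower only where the brightest probeset of the gene was called in the same direction both as deposited and after quantile normalization. By that rule 861 of 14217 genes (6.06%) were higher and 827 (5.82%) were lower in L5. The largest rises and falls below were chosen among such genes whose segments did not overlap. For them absence of overlap and a small p were set by the choice and are no further support. The share of all genes without overlap is not given here.

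The arrays of the 2 segments also differed in quality measures, and no L5 array overlapped an L4 array in any of the 4 measures that follow. The median signal was 29.0 ± 0.49 in L5 and 31.7 ± 0.77 in L4 (SD, n = 5 each). For GAPDH, the 3′ signal over the 5′ signal, a ratio that grows as RNA degrades, was on the log2 scale 1.01 ± 0.09 in L5 and 1.29 ± 0.12 in L4 (SD, n = 5 each). The same ratio of actin was 4.20 ± 0.11 in L5 and 4.79 ± 0.20 in L4. The bacterial hybridization controls, which are brighter when less labelled sample is loaded, averaged 9.11 ± 0.17 in L5 and 9.69 ± 0.11 in L4 on the log2 scale. Each of these differences had p = 0.00794 (exact permutation test, two-sided), the smallest p that 5 arrays against 5 allow. Array names number the 5 arrays of a group in a row, so the order of processing and the segment cannot be told apart. The part of RNA quality in the calls was not tested. Within a group the arrays lay close together, with a median SD over probesets of 0.11 in L5 and 0.14 in L4 on the log2 scale.

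**Figure D1:**
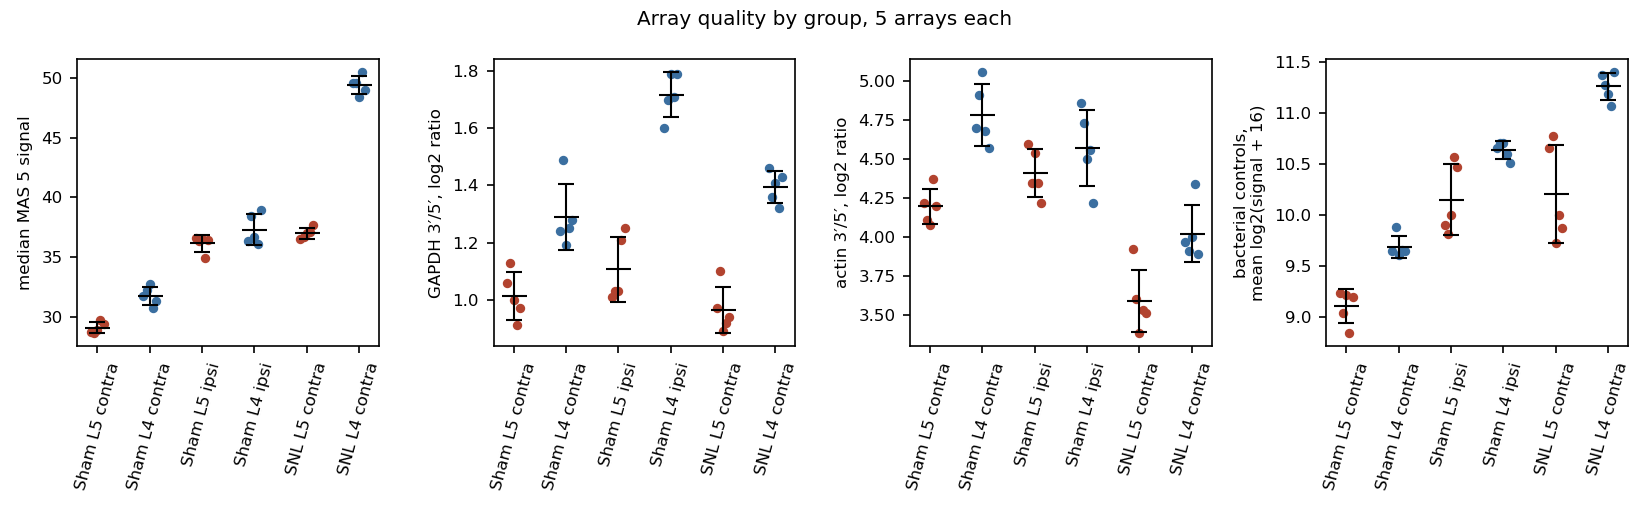
Array quality in the sham groups of both sides and the contralateral SNL groups (x axis): median MAS 5 signal, log2 3′/5′ ratio of GAPDH, log2 3′/5′ ratio of actin, and mean log2(signal + 16) of the bacterial controls (y axes). Points are arrays (L5 red, L4 blue), with the mean and SD of each 5 arrays as bars. In contralateral sham DRGs the GAPDH ratio spans 0.91 to 1.13 in L5 and 1.19 to 1.49 in L4.

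The tissue label was checked against cell markers. Genes of DRG neurons were bright in both segments. Peripherin (Prph), an intermediate filament of peripheral neurons, had 1313 ± 45.3 in L5 and 1570 ± 131 in L4 (SD, n = 5 each), and the nociceptor sodium channel gene Scn10a had 500.4 ± 50.3 in L5 and 429.6 ± 25.2 in L4. Myelin basic protein (Mbp), of Schwann cells, had 1337 ± 39.8 in L5 and 1715 ± 128 in L4. Of 17 defining markers of neurons, satellite glia and Schwann cells that were measured, Kcnj10, a potassium channel of satellite glia, was near 0 in both segments (1.09 in L5, 0.946 in L4). Prx, a myelin protein of Schwann cells, was the only marker of the 17 called under both scalings, at −0.32. The neurofilament gene Nefl was lower in L5 as deposited (−0.45) and not called after quantile normalization (0.19), so the bright neuronal genes had no stable direction. In the list of 24 pan-neuronal genes, 15 were called lower as deposited and 2 after quantile normalization.

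Hoxd10, which specifies lumbar and hind limb levels in the mouse, had the largest rise among the genes described here. Its signals from lowest to highest were 78.1, 81.5, 82.5, 83.8 and 83.9 in L5, against 22.4, 25, 27.1, 27.4 and 31.0 in L4. All 5 L5 arrays lay far above all 5 L4 arrays, and the mean signal in L5 was 3.08 times that in L4. The difference was 1.20 ± 0.07 (SE) on the log2 scale (limma, adjusted p = 1.19e-07). Hoxd9, its neighbour in the HoxD cluster, had 264, 266, 267, 268 and 280 in L5 (mean 269 ± 6.17, SD), against 152, 158, 171, 197 and 209 in L4 (mean 178 ± 24.5, SD). The groups did not overlap, and the difference was 0.57 ± 0.07 (SE, adjusted p = 1.46e-04). Hoxd1, at the other end of that cluster, was higher by 0.46.

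The difference was not shared by the next gene of the cluster. Hoxd8 had 489, 500.2, 503, 508 and 524 in L5, against 466, 499, 501, 503 and 511 in L4. The groups overlapped, and the difference was 0.03 ± 0.04 (SE, adjusted p = 0.708). Hoxa10, the paralogue of Hoxd10 in another cluster, averaged 436 ± 22.5 in L5 and 414 ± 21.6 in L4 (SD, n = 5 each), a difference of 0.07 (adjusted p = 0.324). Hoxa9 had a mean of 360 ± 8.06 in L5 and 319 ± 29.0 in L4, and its difference of 0.17 was called as deposited (adjusted p = 0.0426) but not after quantile normalization (0.138). The other measured Hox genes of paralogue groups 8 to 13 were dim. Hoxc9 averaged 30.8 in L5 and 32.4 in L4, while Hoxc8 (8.89 in L5), Hoxa11 (5.48 in L5), Hoxd11 (2.37 in L5) and Hoxb13 (0.51 in L5) were dimmer in both segments, and none of these 5 was called. In all, 3 of 22 measured Hox genes were higher and none was lower under both scalings, against 6.06% of all genes higher. The median over the 22 genes was −0.03 as deposited and 0.06 after quantile normalization, against −0.01 and 0.01 over all genes.

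The sequences upstream of the 2 genes that differed and of the neighbour that did not are shown because the 3 genes lie side by side on chromosome 3. They are the 250 bases before each annotated start, from RefSeq (build GRCr8, plus strand), and capitals mark matches to any of 4 motifs on either strand. The TATA box was searched as TATAAA. The GC box was searched as GGGCGG. The CCAAT box was searched by the letters of its name, and the E-box, which reads the same on both strands, as CACGTG. The CCAAT box and the E-box were added after the sequences had been seen. No marked match overlaps another.
Hoxd10 (chr3:80001697-80001946): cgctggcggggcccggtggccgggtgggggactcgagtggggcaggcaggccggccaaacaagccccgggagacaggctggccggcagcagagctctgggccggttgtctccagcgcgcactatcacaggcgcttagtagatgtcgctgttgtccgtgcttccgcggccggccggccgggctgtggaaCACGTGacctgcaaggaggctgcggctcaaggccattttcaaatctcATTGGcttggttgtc
Hoxd9 (chr3:80007756-80008005): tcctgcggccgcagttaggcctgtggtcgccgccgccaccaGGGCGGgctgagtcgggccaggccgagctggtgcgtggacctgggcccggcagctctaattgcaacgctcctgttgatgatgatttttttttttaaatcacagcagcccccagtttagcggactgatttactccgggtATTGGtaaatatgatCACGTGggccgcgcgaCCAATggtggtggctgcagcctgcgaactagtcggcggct
Hoxd8 (chr3:80014973-80015222): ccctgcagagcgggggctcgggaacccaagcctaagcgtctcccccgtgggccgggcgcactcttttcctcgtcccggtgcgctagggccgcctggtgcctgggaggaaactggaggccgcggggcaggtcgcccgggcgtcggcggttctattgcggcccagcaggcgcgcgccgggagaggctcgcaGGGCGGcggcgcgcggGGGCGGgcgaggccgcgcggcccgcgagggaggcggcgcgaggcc
The windows before Hoxd10 and Hoxd9 each held 1 E-box match, a motif that 5.59% of 33469 RefSeq windows of that length hold. Hoxd10 also had 1 CCAAT box match and Hoxd9 had 2, a motif in 34.0% of windows. The Hoxd8 window held neither, and had 2 GC box matches, against 1 before Hoxd9 and none before Hoxd10 (30.5% of windows hold one). None of the 3 held a TATA box match (12.9% of windows do). A match is a description of the letters and does not show a binding site.

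The Hoxd10 difference was of the same direction in the other comparisons of the segments. On the ipsilateral side of the same sham rats, which shares no array with the contralateral comparison, Hoxd10 had 75.5, 79.0, 81.3, 82.4 and 94.4 in L5, against 22.9, 35.4, 36.1, 36.5 and 37.1 in L4 (limma difference 1.0, adjusted p = 9.05e-06). In the contralateral DRGs of the SNL rats it had 152, 153, 165, 166 and 172 in L5, against 48.3, 54.0, 55.5, 56.9 and 65.0 in L4 (difference 1.30, adjusted p = 3.28e-09). Segment and array series cannot be told apart there, since the SNL L5 arrays belong to another series than the SNL L4 arrays. Hoxd9 differed by 0.58 on the ipsilateral side of sham rats and by 0.79 in the contralateral SNL DRGs. In the ipsilateral SNL DRGs, where the L5 nerve was ligated, the order of Hoxd10 was the other way, with 58.9 ± 8.81 in L5 and 80.5 ± 16.4 in L4 (SD, n = 5 each), and that difference is given as values only.

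**Figure D2:**
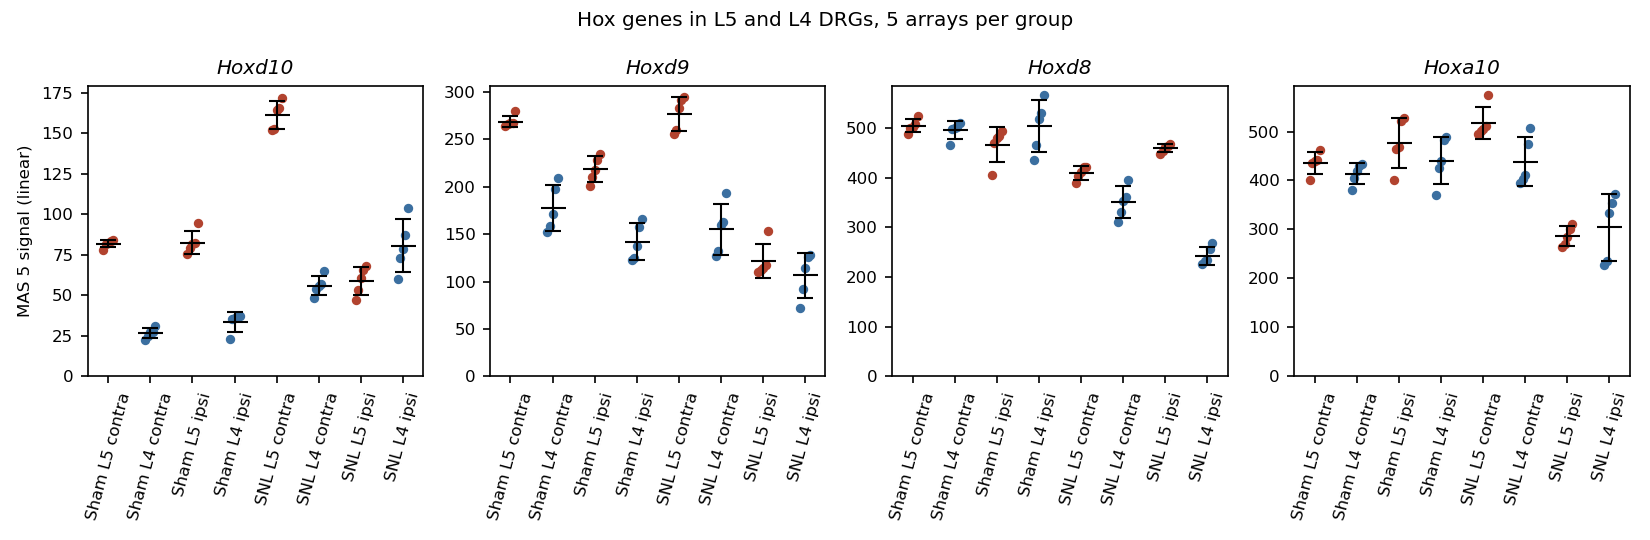
Linear MAS 5 signal (y axis, from 0) of Hoxd10, Hoxd9, Hoxd8 and Hoxa10 in the 8 groups of the study (x axis). Points are arrays (L5 red, L4 blue), with the mean and SD of each 5 arrays as bars. Hoxd10 averages 81.9 in L5 and 26.6 in L4 of contralateral sham DRGs, while Hoxd8 averages 505 in L5 and 496 in L4.

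Among the other genes higher in L5, several belong to sensory neurons. Htr3a, a subunit of the ionotropic serotonin receptor, had 74.0, 79.3, 82.0, 82.6 and 89.9 in L5, against 38.9, 41.6, 44.8, 49.1 and 50.5 in L4. The groups did not overlap, as the choice required, and the difference was 0.68 ± 0.07 (SE, adjusted p = 3.28e-05). Cacna2d1, the calcium channel subunit that binds gabapentin, had 173, 173, 177, 185 and 193 in L5, against 114, 115, 122, 124 and 132 in L4 (difference 0.51 ± 0.06, adjusted p = 3.30e-05). Rab27b, a regulator of vesicle release, averaged 151 ± 15.4 in L5 and 92.6 ± 10.3 in L4 (difference 0.62), but its other, dimmer probeset was not called (−0.26). Scn11a, a nociceptor sodium channel, averaged 1129 ± 53.8 in L5 and 1201 ± 129 in L4, and P2rx4, an ATP-gated channel, averaged 53.6 ± 10.9 in L5 and 53.1 ± 3.06 in L4, and neither was called. The limma differences were −0.08 for Scn11a and 0.00 for P2rx4. Of 80 measured ion channel genes, 14 were higher and 6 lower, against 6.06% and 5.82% of all genes, so the number lower was near that of genes at large.

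The lists of neuron classes differed in the direction of their called members. All list counts of contralateral sham DRGs from here on stand beside 6.06% of all genes higher and 5.82% lower. Of 18 measured genes of nonpeptidergic nociceptors, 5 were higher (Mrgprx3, Plxnc1, Cd55, Gfra1 and Prkcd) and none was lower, with a median of 0.06 as deposited and 0.17 after quantile normalization. The other 13 were not called under both scalings, among them P2rx3 (−0.04), Ret (−0.01), Lpar3 (−0.19) and Scn10a (0.21). Mrgprx3, a receptor gene of the Mas-related family, had 62.3, 63.9, 67.7, 70.5 and 77.6 in L5, against 37.7, 39.2, 45.7, 47.3 and 51.2 in L4. The groups did not overlap, and the difference was 0.49 ± 0.08 (SE, adjusted p = 7.41e-04). Plxnc1, a semaphorin receptor, averaged 306 ± 19.5 in L5 and 218 ± 10.5 in L4 (difference 0.46), and its second probeset was also higher (0.37). Of 13 measured genes of cutaneous low-threshold mechanoreceptors, 2 were higher (Tafa4 and P2ry1) and 1 was lower (Piezo2), with a median of −0.03 as deposited and 0.02 after quantile normalization. The number lower was near that of genes at large. Tafa4, a secreted protein of C-fibre low-threshold mechanoreceptors in the mouse, averaged 87.4 ± 9.68 in L5 and 57.7 ± 10.3 in L4 (difference 0.50).

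Of 27 measured genes of proprioceptors, 1 was higher and 6 were lower, against 6.06% and 5.82% of all genes. As deposited alone, 12 of the 27 were lower. The list median was −0.14 as deposited and −0.07 after quantile normalization. The higher gene was Slc17a7 (0.26), and 20 were not called under both scalings, among them Pvalb (−0.25) and Etv1 (−0.15). Ntrk3, the receptor for neurotrophin-3, on which proprioceptors depend, had 98.7, 99.3, 106, 109 and 134 in L5, against 148, 151, 152, 154 and 162 in L4. The groups did not overlap, and the difference was −0.44 ± 0.07 (SE, adjusted p = 6.66e-04). Calb2 (calretinin), a calcium-binding protein of some large neurons, averaged 125 ± 16.7 in L5 and 197 ± 26.7 in L4 (difference −0.60). Runx3, the transcription factor of the proprioceptor lineage, was lower by 0.31. Piezo2, the mechanically gated channel of touch and muscle sense and the lower gene of the mechanoreceptor list, was dim, at 13.6 ± 3.49 in L5 and 29.2 ± 6.77 in L4 (difference −0.61). Of 30 sensory transcription factor and lineage genes, 2 were higher and 8 lower, among the lower Rorb (−0.84) and Bcl11a (−0.64), though the other Bcl11a probeset was not called (−0.14). Runx3, Ntrk3 and Esrrg are lower members of both this list and the proprioceptor list. The 23 peptidergic genes were split, with 4 higher, such as Nts (0.37), and 4 lower, such as Cartpt (−0.66).

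Of 25 measured macrophage genes, 9 were higher in L5 and 1 was lower (Lyve1, at −0.46), against 6.06% and 5.82% of all genes. The other 15 were not called, and the list median was 0.20 as deposited and 0.15 after quantile normalization. The listed symbol Spi1 was matched to Serpina1 (0.10, not called), so Serpina1 and not Spi1 enters the counts, the median and the summed signal. Adgre1, which encodes the macrophage antigen F4/80, had 101, 101, 106, 109 and 116 in L5, against 57.2, 57.9, 64.6, 73.6 and 75.5 in L4 (difference 0.59 ± 0.08, adjusted p = 1.26e-04). The lysosomal protease gene Ctss had 325, 340.4, 342, 351 and 356 in L5, against 216, 225, 250, 258 and 273 in L4 (difference 0.47 ± 0.06, adjusted p = 1.42e-04). Neither gene overlapped between the segments. The chemokine gene Ccl6 averaged 242 ± 30.3 in L5 and 150 ± 10.8 in L4 (difference 0.63). The summed signal of the 25 macrophage genes spanned 3666 to 3950 in L5 and 3056 to 3352 in L4. In the contralateral SNL DRGs 2 of the 25 were higher and 3 lower, with a median of 0.01, where 13.2% of all genes were higher and 11.8% lower. The differences of Adgre1 (−0.37), Ctss (0.04) and Ccl6 (0.05) were not called under both scalings there. Among other lists, 6 of 30 proteasome genes were higher and none lower under both scalings. As deposited alone, 6 were higher and 4 lower, with a list median of −0.03. Of 38 genes known from nerve injury 8 were higher and 1 lower, the 8 with differences of 0.15 (Jun) to 0.55 (Cd44, a hyaluronan receptor). Npy, Vip, Nts, Gfra1 and Cacna2d1 are among the 8 and are also counted as higher in the nociceptor or ion channel lists. As deposited alone, 10 of these 38 were higher and 6 lower, with a list median of 0.05. The nerve injury gene lower under both scalings was Sox11, a transcription factor of growing neurons, at 49.2 ± 2.60 in L5 and 95.4 ± 20.1 in L4 (difference −0.76). This fall was larger in size than each of the 8 rises.

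The largest falls in L5 included genes of muscle, fat, meninges and connective tissue. Tnnc2, troponin C of fast skeletal muscle, had 8.88, 11.4, 12.1, 12.5 and 13.1 in L5, against 58.1, 63.1, 70.6, 71.7 and 73.2 in L4. The groups did not overlap, and the difference was −1.59 ± 0.08 (SE, adjusted p = 4.08e-08). No detection calls were used here, so a signal as dim as that of Tnnc2 or Fabp4 in L5 was not told apart from background, and no ratio is given for them. Of 33 skeletal muscle genes 16 were lower and none higher, with a median of −0.32 as deposited and −0.24 after quantile normalization. The summed signal of this list spanned 2488 to 2722 in L5 and 3407 to 3509 in L4. In the contralateral SNL DRGs the same list ran the other way, with 28 of 33 genes higher in L5 (against 13.2% of all genes) and a median of 2.29. Its summed signal there was 11862 to 12961 in L5 and 3989 to 4359 in L4.

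Fabp4, a fatty acid carrier of fat cells, had 6.32, 6.37, 8.67, 9.88 and 10.02 in L5, against 40.8, 50.8, 55.1, 58.6 and 59.3 in L4 (difference −1.50 ± 0.09, adjusted p = 1.75e-07). Adipoq, the fat cell hormone adiponectin, was lower by 0.76, and 5 of 18 fat cell genes were lower and none higher. Ptgds, the prostaglandin D2 synthase made in the meninges, had 394, 397, 398, 401 and 420.1 in L5, against 791, 854, 867, 879 and 936 in L4 (difference −1.07 ± 0.05, adjusted p = 1.53e-08). Slc6a20a, a proline transporter also found in the meninges, averaged 40.3 ± 4.63 in L5 and 85.6 ± 9.44 in L4 (difference −0.85). Of 30 meningeal and perineurial genes 8 were lower and 1 higher, and of 45 fibroblast and matrix genes 13 were lower and 2 higher. Pdgfrb, a growth factor receptor of pericytes and fibroblasts, had 23.6, 25.2, 26.7, 31.7 and 39.2 in L5, against 62.4, 69.6, 83.6, 87.5 and 87.9 in L4 (difference −1.06 ± 0.11). A second Pdgfrb probeset was also lower (−0.88) and the remaining one was not called (0.13). The neighbouring tissue in each DRG was not measured apart, and its part in these falls was not tested.

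S100a8, a calcium-binding protein of neutrophils, had 64.9, 68.8, 75.5, 82.6 and 86.1 in L5, against 184, 185, 187, 194 and 195 in L4 (difference −1.17 ± 0.07, adjusted p = 1.19e-07). Its partner S100a9 averaged 25.7 ± 5.05 in L5 and 64.7 ± 9.66 in L4 (difference −0.95). Of 20 neutrophil and marrow genes 8 were lower and none higher, against 5.82% of all genes lower and 6.06% higher. Aifm2 (−0.17, not called) is counted among the 20 because the listed symbol Prg3 was matched to it. The summed signal of the 20 was 300 to 323 in L5 and 547 to 584 in L4. On the ipsilateral side the same sum was 461 to 522 in L5 and 495 to 590 in L4, and no gene of the list was called under both scalings. Of 25 myelin genes 5 were lower and none higher, among them Egr2 (−0.35), the master regulator of myelination, at 546 ± 20.4 in L5 and 700 ± 34.1 in L4.

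Among the 12 largest falls were also genes of no shared class. Klhl3, an adaptor of a ubiquitin ligase, had 21.8, 22.7, 23, 23.5 and 24.4 in L5, against 71.6, 77.4, 81.6, 82.8 and 90.1 in L4 (difference −1.30 ± 0.07, adjusted p = 8.74e-08). Sall4, a zinc finger transcription factor, averaged 34.9 ± 2.74 in L5 and 84.4 ± 13.2 in L4 (difference −0.97). Eif4g1, a translation initiation factor, shows the limit of single probesets. Its brightest probeset was lower by 1.11, while another was higher by 0.65 and 2 were not called. Snrk, a kinase gene, had a difference of −1.53 with a wide spread, at 19.0 ± 8.00 in L5 and 92.0 ± 44.7 in L4. More widely, 1203 genes had more than 1 probeset and at least 1 of these called under both scalings. Calls in both directions were held by 36 of them. Genes with only 1 called probeset, which could not hold both, are among the 1203.

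The other genes among the 12 largest rises were of mixed kinds. Ociad2, a mitochondrial and endosomal protein, had 109, 110, 114, 117 and 121 in L5, against 61.4, 64.5, 64.6, 66.2 and 68.2 in L4 (difference 0.68, limma adjusted p = 2.92e-06). Rbp2, a cellular retinol-binding protein, had 43.7, 45.6, 50.5, 52.9 and 84.3 in L5, against 22.6, 26.9, 27.0, 29.8 and 30.5 in L4 (difference 0.70). Neither gene overlapped between the segments, although the Rbp2 signal of 1 L5 array stood well above the other 4. Gorasp2, a Golgi stacking protein, averaged 169 ± 5.32 in L5 and 103 ± 26.3 in L4 (difference 0.67). Tbc1d1, which regulates glucose transporter traffic, averaged 158 ± 12.5 in L5 and 99.1 ± 7.40 in L4 (difference 0.60), and its other, dim probeset was not called (0.01). Coq3, an enzyme of ubiquinone synthesis (0.63), Shfl, an inhibitor of viral frameshifting (0.63), and Krt7, a keratin of simple epithelia (0.60), were also higher.

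Other large falls were those of Ifnk, an interferon (−1.32), Car3, a carbonic anhydrase of muscle and fat (−1.09), and Irak4, a kinase of Toll-like receptor signalling (−1.05). Car3 had 18.4, 18.4, 18.7, 19.9 and 21.7 in L5, against 57.1, 58.3, 58.9, 60.5 and 61.5 in L4, without overlap. Among the remaining lists the largest called members were mostly lower. Hlf, a transcription factor of the circadian output, averaged 59.9 ± 3.37 in L5 and 117 ± 6.98 in L4 (difference −0.81), and Per3, of the clock itself, differed by −0.54. The other Hlf probesets were not called (−0.19, −0.19 and −0.10). Of 18 measured circadian genes 3 were lower, 1 was higher (Clock, 0.39) and 14 were not called under both scalings. The kinase gene Sgk1, which glucocorticoids induce, averaged 922 ± 17.3 in L5 and 1281 ± 122 in L4 (−0.46), while Gadd45b, a stress response gene, was higher (0.50). The chaperone genes Hsph1 (−0.40) and Cryab (−0.36) were lower, as were the ribosomal protein genes Rpl34 (−0.55) and Rps13 (−0.44). The other Hsph1 probeset was not called (0.20). Of 30 heat shock and unfolded protein genes 2 were higher and 3 lower. The 32 ribosomal protein genes held 4 lower and none higher, with a median of −0.19 as deposited and 0.01 after quantile normalization. Rpl34 was not called on the ipsilateral side (−0.09) and was higher in contralateral SNL DRGs (0.28).

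Of structural and matrix genes, Col8a1 (−0.72) and the cartilage collagen gene Col2a1 (−0.56) were lower, and Chad, a cartilage protein, was higher (0.34). Atp2a1, the calcium pump of fast muscle, was lower by 1.11 on the log2 scale at a dim level in L5 (9.33). The endothelial gene Vwf (−0.35), the smooth muscle kinase gene Mylk (−0.28), the myelin gene Bcas1 (−0.41), the cytotoxic gene Prf1 (−0.38) and the proliferation marker Mki67 (−0.46) were lower. Aldh1a2, which makes retinoic acid (−0.61), the ephrin receptor gene Epha4 (−0.52), Nr4a3 (−0.62), Gjb6 (−0.77), Pax2 (−0.37), Gdnf (−0.53) and Grp (−0.44) were lower at signals of 3.20 (Pax2) to 17.8 (Epha4) in L5. Another Epha4 probeset was also lower (−0.37), and the remaining ones (−0.28 and 0.30) were not called under both scalings. The other Nr4a3 probesets (−0.05 and −0.35) were not called under both scalings either. The synaptic gene Vamp2 (0.25) and the glial glutamate transporter gene Slc1a3 (0.19) were higher, and Elavl3, an RNA-binding protein of neurons, was lower (−0.29). The other Slc1a3 probesets differed by −0.13 and −0.08 and were not called under both scalings, nor was the other Elavl3 probeset (−0.04). The proteasome subunits Psmd8 (0.43) and Psma3 (0.39), the lipid enzymes Fads2 (0.42) and Elovl6 (0.30), and Alas2, of haem synthesis (0.27), were higher. The other Elovl6 probeset was not called (0.02). Mx2 was higher (0.64) and Rsad2 lower (−0.29) among interferon genes, and Atp5pf higher (0.37) and Uqcrh lower (−0.41) among those of oxidative phosphorylation. Mx2 (−0.43) and Alas2 (−0.39) were lower in L5 on the ipsilateral side. In contralateral SNL DRGs Mx2 was lower (−1.69), and Rsad2 (1.01) and Alas2 (0.90) were higher.

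**Figure D3:**
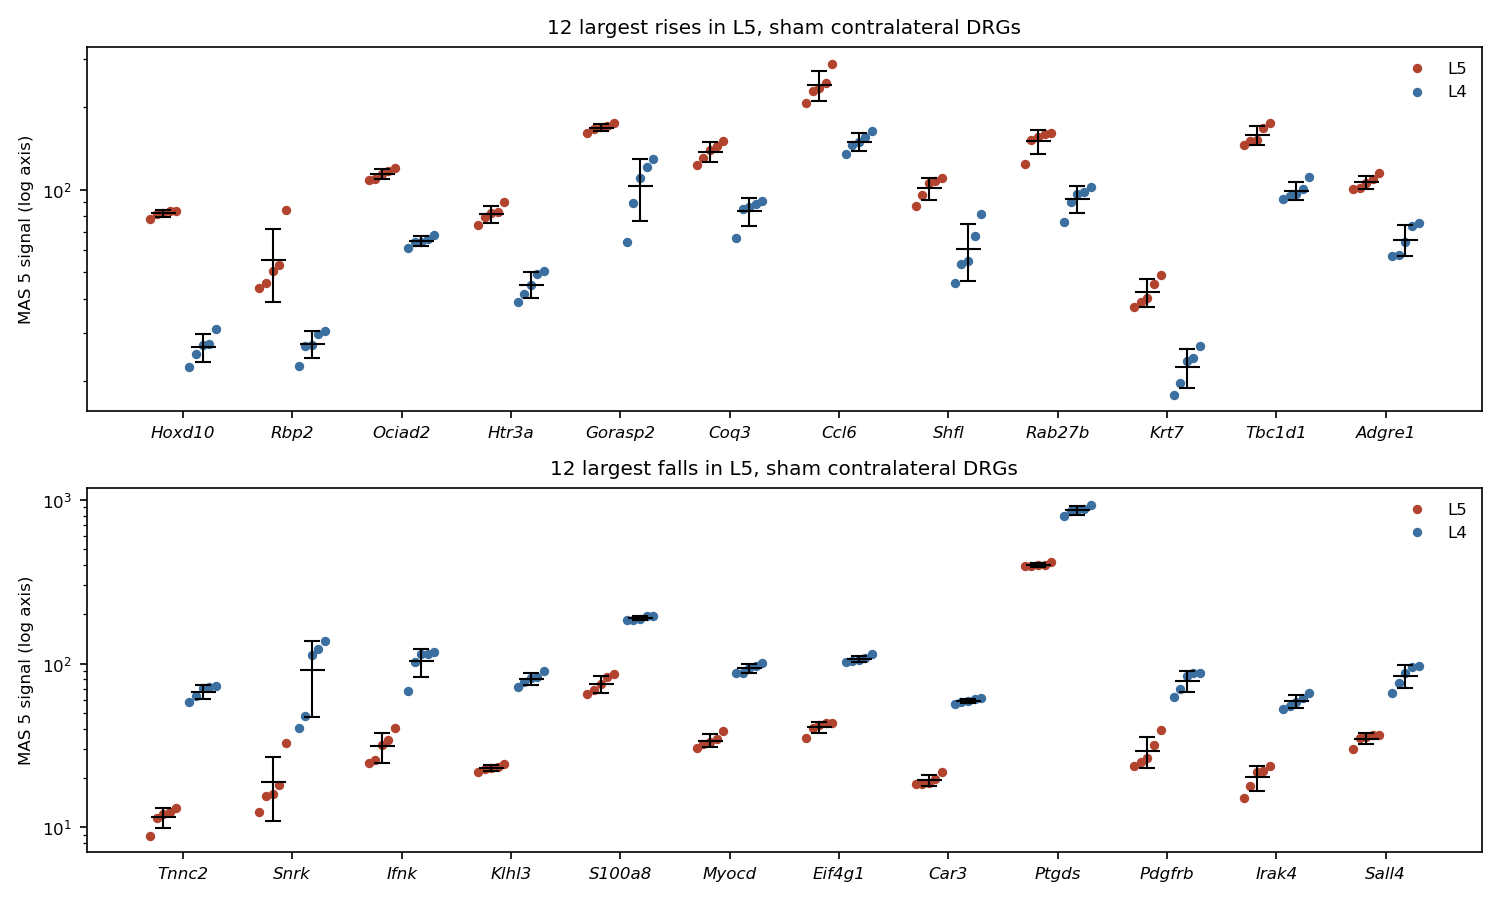
MAS 5 signal (y axis, log scale) on each contralateral sham array for the 12 genes with the largest rise (upper panel) and the 12 with the largest fall (lower panel) in L5. Points are arrays (L5 red, left, and L4 blue, right), with the mean and SD of each 5 arrays as bars. No gene overlaps between the segments, as the choice of genes required.

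**Figure D4:**
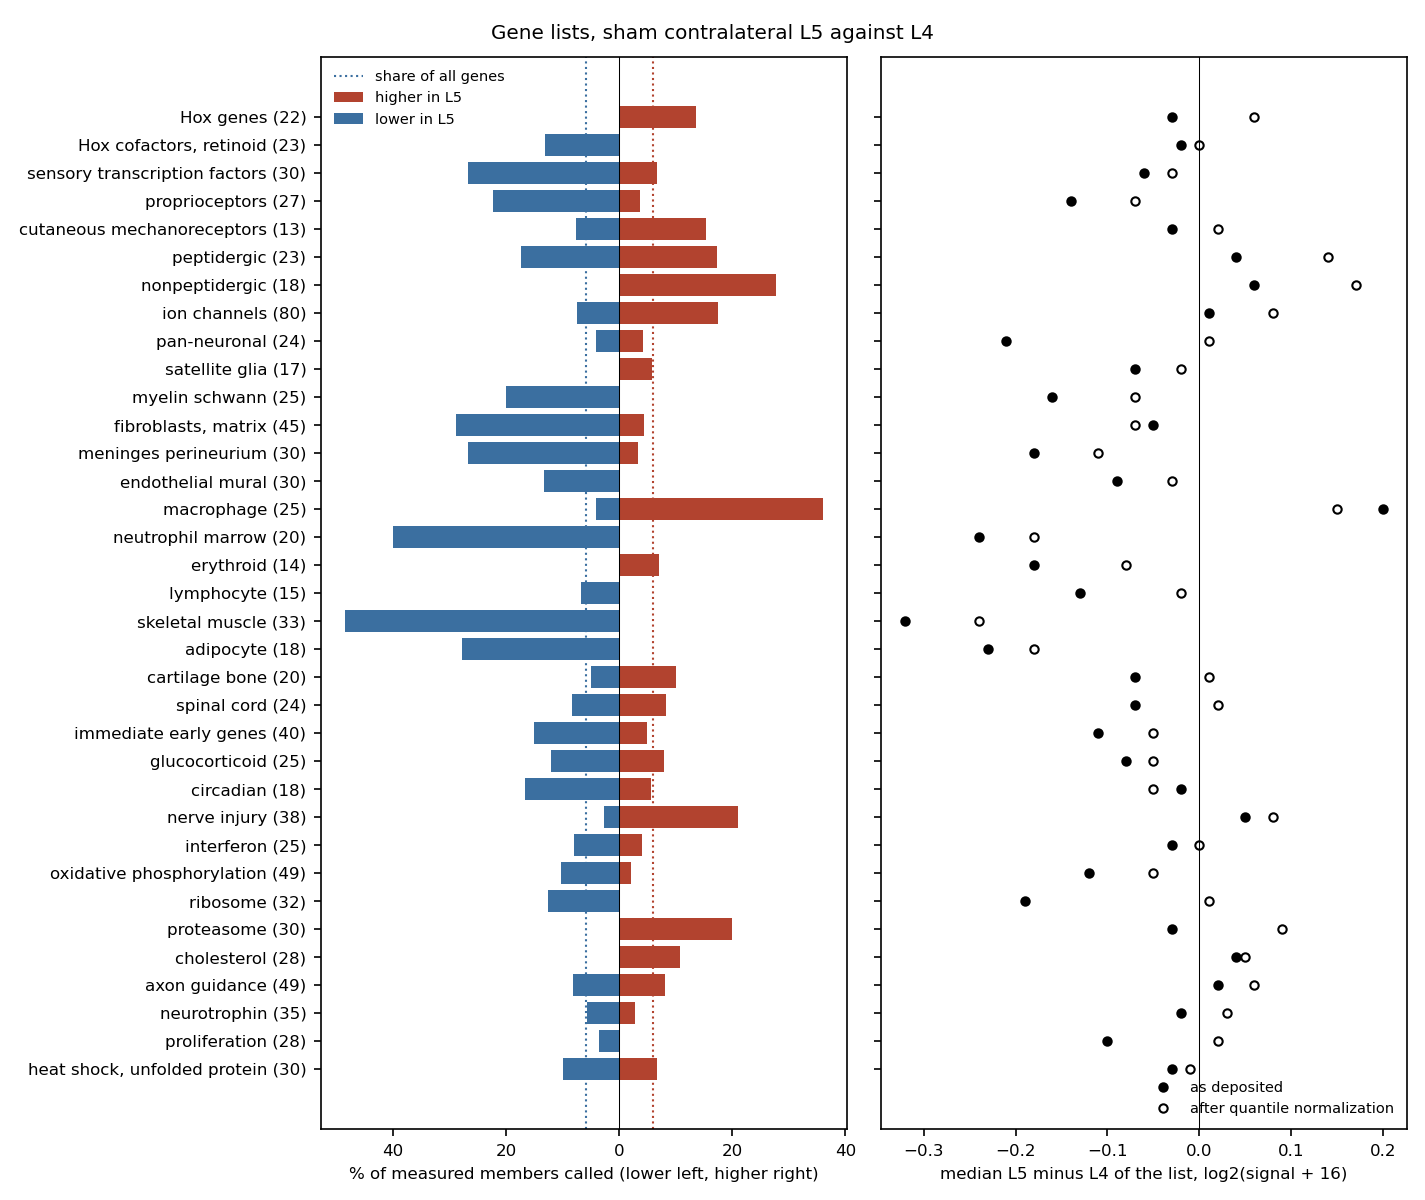
Share of the measured members of each gene list (number in brackets) called higher (red, right) or lower (blue, left) in L5 under both scalings, with dotted lines at the shares of all genes, 6.06% and 5.82%. The right panel gives the median log2 difference of each list as deposited (filled) and after quantile normalization (open). Skeletal muscle has 16 of 33 members lower and macrophages 9 of 25 higher.

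Whether the segment difference recurred on the operated side of the same rats was asked with the ipsilateral sham arrays, none of which enter the contralateral comparison. There 18.7% of genes were called under both scalings. Of the 861 genes higher in contralateral L5, 270 were also higher in ipsilateral L5, which is 31.4% of the contralateral and 23.4% of the ipsilateral list, and 29 were lower. Of the 827 lower genes, 252 were also lower on the ipsilateral side (30.5% of the contralateral list and 16.7% of the ipsilateral list), and 40 were higher. The log2 differences of the sides had a Pearson r of 0.34 over 14217 genes as deposited and 0.30 after quantile normalization, across genes, which are not independent replicates. The GAPDH 3′/5′ ratio differed between the segments on both sides in the same direction (1.11 ± 0.11 in L5 and 1.72 ± 0.08 in L4 on the ipsilateral side), and its part in the shared calls was not tested.

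Of the 6 largest contralateral rises that recurred, Hoxd10 is given above. The others were higher on the ipsilateral side by 0.70 (Rbp2), 0.31 (Ociad2), 0.62 (Htr3a), 0.29 (Gorasp2) and 0.70 (Ccl6). Of the 6 largest falls that recurred, Tnnc2 differed by −0.89, Klhl3 by −0.57, Car3 by −0.43, Ptgds by −0.28, Pdgfrb by −1.50 and Sall4 by −0.96. Pdgfrb had 84.3 ± 8.47 in L5 and 267 ± 20.1 in L4 on that side. Its second probeset differed there by −1.12 and the remaining one by 0.42. Other genes described above also recurred. Cacna2d1 was higher in ipsilateral L5 by 1.18, with 165, 175, 179, 194 and 197 in L5, against 60.0, 62.6, 64.2, 79.7 and 94.6 in L4. Mrgprx3 was higher by 0.83, Plxnc1 by 0.77 and Ctss by 0.39, while Adgre1 was not called (0.24, limma adjusted p = 0.149). Stra6, the receptor for retinol-binding protein (−1.38), and Fabp4 (−0.95) were lower.

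On the ipsilateral side 8.1% of all genes were higher and 10.6% lower in L5 under both scalings. By list, 5 of 18 nonpeptidergic genes were higher and none lower, 7 of 25 macrophage genes were higher and none lower, and 10 of 33 muscle genes were lower and none higher. Sensory transcription factor genes had 5 higher and 3 lower of 30, with a median of 0.06 against −0.06 on the contralateral side, and Rorb (0.05) and Bcl11a (−0.01) were not called. Proprioceptor genes had 1 higher and 5 lower of 27, but Ntrk3 was not called, at 114 ± 14.3 in L5 and 96.7 ± 13.7 in L4.

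In the contralateral DRGs of the SNL rats, 25.0% of genes were called under both scalings (13.2% higher and 11.8% lower). The median probeset differed by −0.18 as deposited and 0.00 after quantile normalization. Array quality differed between the segments there too. The GAPDH 3′/5′ ratio averaged 0.97 in L5 and 1.40 in L4 on the log2 scale, and the median signal 37.0 and 49.4. Across all 3 comparisons, 125 of 14217 genes were higher and 117 lower in L5 under both scalings. The part of array quality in these shared calls was not tested. Ranked by the smallest of the 3 differences, the higher genes were led by Hoxd10 and Hoxd9 and included Rab27b, Cacna2d1, Tafa4, Mrgprx3, Plxnc1 and Cd55, a complement regulator anchored on the cell surface. By their brightest probesets, the lower genes were led by Pdgfrb and Sall4 and included Stra6 and Klhl3. The values of Cacna2d1 were 0.51, 1.18 and 0.51 in contralateral sham, ipsilateral sham and contralateral SNL DRGs.

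**Figure D5:**
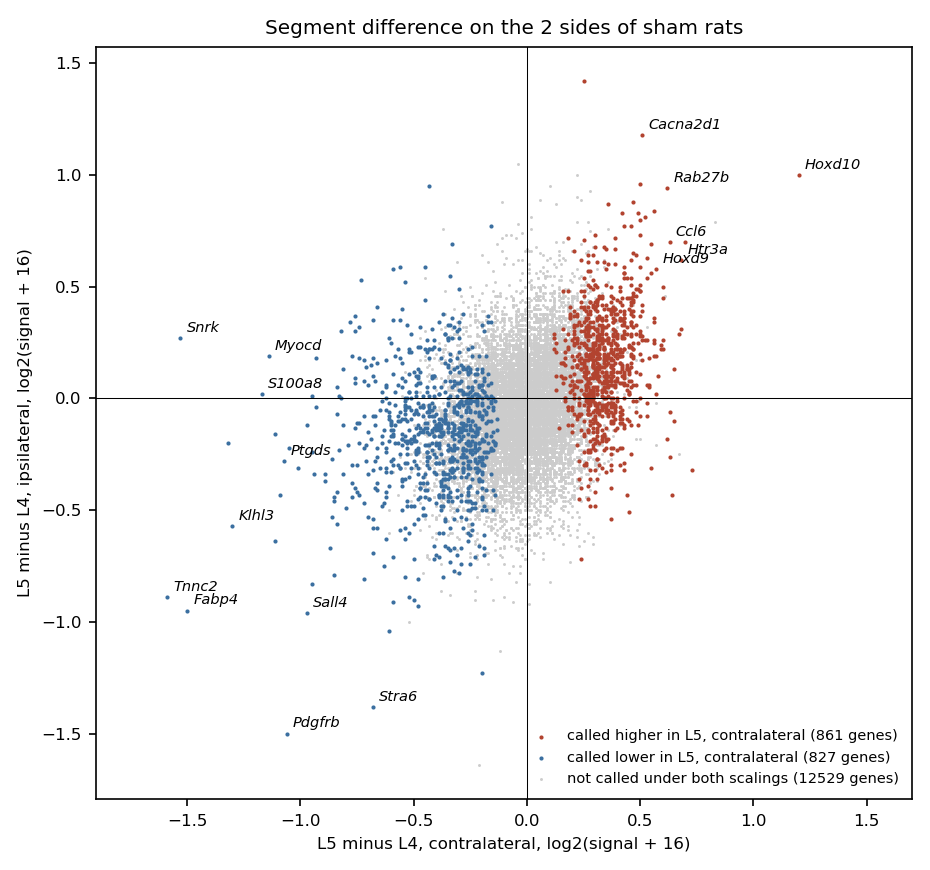
L5 minus L4 on the log2(signal + 16) scale for 14217 genes in contralateral (x axis) and ipsilateral (y axis) DRGs of sham rats, 5 arrays per group. Red and blue points are the 861 genes higher and the 827 lower in contralateral L5 under both scalings, and grey points are the rest. Hoxd10 lies at 1.20 and 1.0, and Pdgfrb at −1.06 and −1.50, while S100a8 lies at −1.17 and 0.02.

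The segment difference itself differed between the sides for 3828 probesets (12.3% of those tested, segment by side in the 20 sham arrays). S100a8 was lower in contralateral L5 by 1.17 and differed by 0.02 on the ipsilateral side, where it had 143 ± 4.60 in L5 and 141 ± 17.5 in L4 (difference between sides 1.19, adjusted p = 6.73e-08). Myocd, a coactivator of smooth muscle genes, had 123.6 ± 17.2 in ipsilateral L5 and 106.0 ± 6.82 in ipsilateral L4, against 33.9 ± 3.10 and 93.5 ± 5.89 in contralateral L5 and L4 (1.32, adjusted p = 6.73e-08). Ntrk3 and Piezo2 also differed between the sides (0.65 and 0.88). The difference of Cacna2d1 was larger on the ipsilateral side by 0.66 (adjusted p = 3.91e-04). For Hoxd10 and Hoxd9 no difference between the sides was found (−0.21, adjusted p = 0.300, and 0.01, adjusted p = 0.967).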

How the data were processed

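Gene expression was measured on 40 Affymetrix rat genome arrays, 1 per DRG, and groups and rat numbers came from the labels. The authors deposited 1 table of linear intensity values from the MAS5 algorithm, whose software version no source states, and all its columns were used. The 57 control probesets were left out, and 31042 were tested as log2(signal + 16) by limma 3.58.1 (lmFit, then eBayes with a trend on the mean signal; R 4.3.3), which was tested on simulated data. Of these, 20826 carry 1 symbol, 436 several and 9780 none listed here, and 20758 matched a current RefSeq symbol. A gene was represented by its brightest probeset. The members and the 35 gene lists were chosen with earlier results of these data known. The text names the 12 largest rises and falls among genes above the median signal whose segments did not overlap, the 6 largest that recurred ipsilaterally, up to 2 called members of each list, Hox genes of groups 8 to 13 and 3 genes the study measured. Other list members, and those of the 3-way comparison, were named after their values were seen.

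The rat numbers pair the DRGs, since each rat gave both segments. Over probesets, the L5 and L4 arrays of 1 rat deviated from their groups with correlations of −0.16 to 0.30. The methods name an unspecified t-test at a p under 0.001, so the rat was not in the fit. Alternatives were other offsets, scalings, filters, tests and thresholds, blocking on the rat, 1 model across the 8 groups, and omitting single arrays. The number of arrays limits the precision.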

Additional observations from a re-analysis of the deposited data

Results flagged for a closer look

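Among 186 sets of 5 arrays (named genes and quality measures, each segment apart), 18 held an array that stood apart from the other 4 (Dixon ratio, gene signals on the log2 scale), where chance flags about 1 in 20 groups. In L5 the array of rat 22 gave 7 of these, with signals of 84.3 for Rbp2, 123.8 for Rab27b, 420.1 for Ptgds, 279.6 for Hoxd9, 1202.9 for Rpl34, 352.8 for Psma3 and 1006.0 for Cryab. The array of rat 23 stood apart for Sall4 (30.13) and Col8a1 (16.61) and that of rat 1 for Vwf (41.17). In L4 the array of rat 1 stood apart for Ifnk (68.0), Col2a1 (160.0) and Scn11a (976.7), that of rat 14 for Coq3 (66.36), Gjb6 (14.62) and the bacterial controls (9.88 on the log2 scale), and that of rat 17 for Epha4 (41.66) and Hoxd8 (465.6).

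For 30 of 89 named genes the difference between L5 and L4 was not the same on the 2 sides of the sham rats, by the test of segment by side in limma as deposited and after quantile normalization. Of all probesets, 12.3% differed between the sides as deposited. Many of the 89 were named for a large difference on the same contralateral arrays. That choice favours a smaller difference on the other side, so the 2 shares cannot be compared. The ipsilateral minus the contralateral difference is given on the log2 scale. It was positive for Snrk (1.81), Myocd (1.32), S100a8 (1.19), Ifnk (1.13), Eif4g1 (0.95), Rorb (0.89), Piezo2 (0.88), Irak4 (0.83), Sox11 (0.83), Ptgds (0.79), Klhl3 (0.74), Epha4 (0.73), S100a9 (0.71), Hlf (0.68), Car3 (0.66), Cacna2d1 (0.66), Ntrk3 (0.65), Bcl11a (0.63), Sgk1 (0.47), Rpl34 (0.46), Mki67 (0.43), Elovl6 (0.38), Plxnc1 (0.31) and Hsph1 (0.28). It was negative for Mx2 (−1.07), Shfl (−0.88), Stra6 (−0.70), Coq3 (−0.69), Alas2 (−0.66) and Pdgfrb (−0.44).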

How the results depend on the processing

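No call of a named gene changed direction under any alternative run made for these genes. Some estimates that were not called changed sign, such as Scn11a (−0.08 as deposited, 0.19 after quantile normalization). Hoxd10, Hoxd9, Tnnc2, Ptgds and S100a8 were called under each run that tested them. The named genes were not rerun at an adjusted p under 0.01 or a 1.5-fold change, and the filter on dim probesets kept 71 of them. Of 89 named genes, calls were lost by 23 under the methods' t-test at p under 0.001, 9 under the fit of all 8 groups, 4 under equal medians and 4 under block with quantile normalization. Scaling and threshold moved the counts of probesets. In contralateral sham DRGs, equal medians gave 6627 higher, quantile normalization 2591 lower, the filter on dim probesets 2644 lower and the fit of all 8 groups 1734 higher and 2916 lower. The methods' t-test at p under 0.001 called 874 higher and 1740 lower on log2 values and 904 and 1608 on linear signals. An adjusted p under 0.01 left 1292 higher and 2471 lower, and a change of 1.5-fold 57 and 581. In ipsilateral sham DRGs these 4 gave 1232 and 1117, 1253 and 1090, 1683 and 1614, and 399 and 437. In contralateral SNL DRGs equal medians gave 10426 higher and 4575 lower, quantile normalization 4920 lower and the filter 3632 lower. There the t-test gave 2068 and 4263 on log2 values and 2084 and 3969 on linear signals, and 1.5-fold gave 732 and 4391. The causes were not tested.

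Leaving out each array gave 2096 to 3695 higher and 3610 to 5172 lower in contralateral and 2380 to 2833 higher and 2541 to 2936 lower in ipsilateral sham DRGs. With the rat as replicate block 2879 were higher and 4330 lower, and among named genes it ended the call of Hoxa9 alone (adjusted p = 0.0510). Block and quantile normalization together, added after the data were seen, gave 2288 lower in sham and 4600 lower in SNL contralateral DRGs, with 750 genes higher and 771 lower under both scalings. Omitting 1 array ended the call of Hoxa9 for 9 of the 10 arrays (all but L4 of rat 1), Atp5pf for 6, Chad for 4, Elavl3 for L5 of rat 17 and Vwf for L5 of rat 1. Scn11a was called lower (−0.15, adjusted p = 0.02) without L4 of rat 1. As deposited, muscle genes called lower numbered 20 to 22 and macrophage genes called higher 9 to 11 as each array was left out. Proprioceptor genes called lower numbered 12 as deposited and 6 after quantile normalization.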
